A study of Mus musculus with 16 samples.

Results

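Hippocampi of 5xFAD-Dp16 mice were compared with hippocampi of wild-type mice by RNA sequencing of polyadenylated transcripts, across all genes of the mouse genome. The comparison takes 8 of the 16 libraries of the series, 4 from 5xFAD-Dp16 and 4 from wild-type, by the genotype each library is labelled with. The other 8 libraries, 4 from 5xFAD and 4 from Dp16, entered the model that estimates the spread and served as the 2 parent genotypes. All mice were 5 months old. The 5xFAD-Dp16 mice carry both of the alleles that the parents carry singly: the 5xFAD transgenes, which are mutant human genes of familial Alzheimer disease expressed in neurons from a Thy1 promoter, and the Dp16 chromosome, on which a segment of chromosome 16 is duplicated so that its genes are present in 3 copies. The wild-type mice, labelled C57BL/6J, carry neither allele, and the labels name a strain for no other genotype. All 4 5xFAD-Dp16 libraries were from males, and the wild-type group held 2 libraries from males (1 and 3) and 2 from females (2 and 4). The 5xFAD and Dp16 groups each held 2 libraries from males and 2 from females. The labels do not state outright that each library came from its own mouse, so the spread behind each p-value is that between libraries, which may be in part technical.

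The segment duplicated in Dp16 corresponds to the part of mouse chromosome 16 that is shared with human chromosome 21, and the mouse is used as a model of Down syndrome. Among its genes are App, the source of the amyloid precursor protein, and a cluster of interferon and interleukin-10 receptor genes. The 5xFAD transgenes lead to early deposition of amyloid-beta plaques. Microglia, the resident macrophages of the brain, gather at plaques, where they sense lipids and dying cells through the receptor Trem2 and its partner Tyrobp and take up a state marked by genes such as Cst7, Itgax and Clec7a. Astrocytes around plaques raise Gfap.

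Library totals were 17.8 to 25.04 M counts (M, mega) in 5xFAD-Dp16 (mean 20.1 ± 3.35, SD, n = 4) and 20.3 to 23.5 M in wild-type (mean 22.01 ± 1.34, SD, n = 4). Mitochondrial transcripts took 5.35 to 6.84% of counts in 5xFAD-Dp16 and 4.78 to 6.10% in wild-type. The sex-linked genes followed the sex labels, in counts per 1 M counts of a library (CPM): 49.6, 47.1, 61.3 and 53.2 CPM in 5xFAD-Dp16, against 40.7, 0, 47.2 and 0 CPM in wild-type for the Y-linked Ddx3y, and 0, 0, 0.101 and 0.0526 CPM in 5xFAD-Dp16, against 0, 101, 0 and 132 CPM in wild-type for Xist, the transcript of the inactive X chromosome. Markers of neighbouring brain regions varied between libraries of both groups. The score of a list of 18 midbrain and hypothalamus markers, of which 8 had enough counts in enough libraries for a test, was -0.76, -0.78, 2.07 and 0.36 in 5xFAD-Dp16 libraries 1 to 4 and -0.82, -0.45, -0.33 and 2.09 in wild-type libraries 1 to 4 (mean of centred log2 CPM), so 1 library of each group stood apart, 5xFAD-Dp16 3 and wild-type 4. A fit without the libraries high in these markers, which are those 2 and library 2 of 5xFAD, was therefore made as well. Among markers left untested, Oxt, Avp, Pmch and Hcrt reached 1500, 1401, 1267 and 426 counts in wild-type, against 1, 10, 7 and 0 in 5xFAD-Dp16. The other way, En1, Foxa1 and Foxa2 reached 134, 17 and 12 counts in 5xFAD-Dp16, against 17, 4 and 0 in wild-type. Whether the high libraries of the 2 groups hold the same neighbouring tissue was not tested.

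Of 16684 genes with enough counts, 169 passed at an adjusted p below 0.05 in edgeR's quasi-likelihood test (Benjamini-Hochberg adjustment over all genes tested), which is 1.01% of the genes tested. Of these, 164 were higher in 5xFAD-Dp16 (0.983% of genes tested) and 5 were lower (0.03%). An unadjusted p below 0.05 was reached by 1064 genes. All 4 5xFAD-Dp16 libraries lay above all 4 wild-type libraries in 514 genes (3.08%) and below them in 216 genes (1.29%), and the groups did not overlap in either direction in 155 of the 169 genes that passed. The rises were spread over the genome: 28 of the 169 genes lay on chromosome 16, 26 of them in the triplicated segment, and each other chromosome from 1 to 19 and the X chromosome held 3 to 14. Over all genes tested the median log2 change was -0.0043, and 8155 genes (48.9%) had a positive change, the share to set beside such counts below. Among passing genes the median was 1.33 in the 143 outside the segment and 0.62 in the 26 inside it. Passing selects for large changes, so the distance of these 2 medians from that of all genes is no result.

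**Figure D1:**
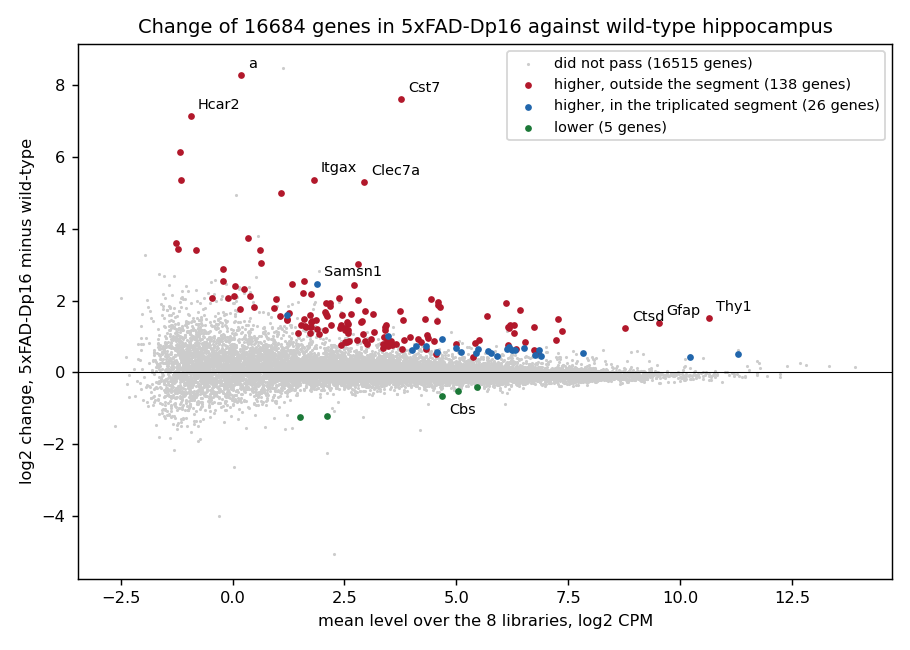
Log2 change of each gene between 5xFAD-Dp16 and wild-type (vertical axis) by its mean level over the 8 libraries (horizontal axis, log2 CPM). Red points are the 138 genes that rose outside the triplicated segment, blue points the 26 that rose inside it and green points the 5 that fell; the rises outside the segment reach much larger values than those inside it.

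The number of passing genes depended on which libraries entered the fit. It was 80 without library 1 of wild-type and 99 without library 3 of wild-type, the 2 wild-type males, and between 115 and 172 when any other of the 16 libraries was left out. In a fit of the males of all 4 genotypes 61 genes passed, 59 of them among the 169, and in a fit of the 2 groups alone 40 genes passed, 39 of them among the 169. The fit of the 2 groups alone kept the sex term. Since 5xFAD-Dp16 held males only, its changes there are set against the wild-type males, and the wild-type females add only to the estimate of the spread. For this comparison it is therefore no check separate from the males-only fit. Without the libraries high in midbrain markers 153 genes passed, 134 of them among the 169 and 26 in the triplicated segment, and the number of rises on each gene list described below differed by at most 1. There were 70 genes that passed in each of the 16 leave-one-out fits, in which 1 library is removed at a time. Changes below are log2 ratios of 5xFAD-Dp16 over wild-type, and a gene is said to have risen or fallen where it passed. The standard error (SE) beside a change is approximate: the size of the change divided by the square root of the test's F statistic.

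The sequences before the start of 8 genes are shown because these genes carry the main changes described below: the 4 genes with the largest named rises outside the segment that the sequence table holds (a, Cst7, Itgax and Clec7a; Hcar2 is named only), the 2 triplicated genes with the smallest p (Samsn1 and Ifnar2), and 2 genes regulated by interferon (Bst2 and B2m), which were chosen after the search because they hold the second motif. Each line gives the 250 bases before the gene's start in RefSeq, build GRCm38.p6, 5′ to 3′ on the strand of the gene. Capitals mark matches on either strand to GAGGAA, the core letters of a site of the myeloid factor PU.1, or to the interferon-stimulated response element, searched as GAAA, any 2 bases, and GAAA again. Matches of either motif may overlap. The RefSeq starts of a and Samsn1 lie 222168 and 113015 bases from the start of the counted gene in GENCODE, so their windows need not be the promoter of the transcripts counted.

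a (chr2:155013320-155013569, + strand): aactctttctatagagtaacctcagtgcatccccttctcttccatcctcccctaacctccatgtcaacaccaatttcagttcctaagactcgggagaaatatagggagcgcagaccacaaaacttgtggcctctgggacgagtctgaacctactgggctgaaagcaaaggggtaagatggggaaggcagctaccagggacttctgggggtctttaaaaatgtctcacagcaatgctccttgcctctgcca
Cst7 (chr2:150570165-150570414, + strand): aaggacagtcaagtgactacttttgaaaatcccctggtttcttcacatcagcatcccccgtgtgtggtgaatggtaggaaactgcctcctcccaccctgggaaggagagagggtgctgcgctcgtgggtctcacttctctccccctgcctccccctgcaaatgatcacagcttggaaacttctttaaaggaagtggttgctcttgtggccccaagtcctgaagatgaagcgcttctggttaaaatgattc
Itgax (chr7:128129300-128129549, + strand): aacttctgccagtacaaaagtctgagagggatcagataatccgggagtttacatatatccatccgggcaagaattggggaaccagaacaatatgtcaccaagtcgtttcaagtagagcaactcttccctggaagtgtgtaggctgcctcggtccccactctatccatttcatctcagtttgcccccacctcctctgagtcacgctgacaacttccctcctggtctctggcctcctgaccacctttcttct
Clec7a (chr6:129472780-129473029, - strand): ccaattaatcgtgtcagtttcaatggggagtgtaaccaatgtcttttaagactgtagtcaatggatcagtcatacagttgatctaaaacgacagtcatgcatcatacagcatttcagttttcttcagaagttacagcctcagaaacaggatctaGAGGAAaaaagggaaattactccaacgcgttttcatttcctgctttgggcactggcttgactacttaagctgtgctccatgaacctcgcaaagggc
Samsn1 (chr16:75909267-75909516, - strand): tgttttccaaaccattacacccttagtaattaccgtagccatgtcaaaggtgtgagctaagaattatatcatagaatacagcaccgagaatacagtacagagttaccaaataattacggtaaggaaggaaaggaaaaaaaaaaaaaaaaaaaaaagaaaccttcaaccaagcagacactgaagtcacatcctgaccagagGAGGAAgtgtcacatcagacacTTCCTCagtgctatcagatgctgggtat
Ifnar2 (chr16:91372533-91372782, + strand): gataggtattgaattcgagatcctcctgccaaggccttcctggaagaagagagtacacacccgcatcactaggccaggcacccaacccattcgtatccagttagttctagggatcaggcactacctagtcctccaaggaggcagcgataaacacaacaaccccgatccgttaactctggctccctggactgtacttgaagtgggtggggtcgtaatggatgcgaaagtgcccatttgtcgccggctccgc
Bst2 (chr8:71537473-71537722, - strand): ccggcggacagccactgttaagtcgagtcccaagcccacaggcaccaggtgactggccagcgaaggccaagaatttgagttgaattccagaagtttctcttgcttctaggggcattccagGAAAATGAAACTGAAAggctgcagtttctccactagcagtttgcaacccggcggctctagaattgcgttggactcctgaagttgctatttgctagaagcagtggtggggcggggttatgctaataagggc
B2m (chr2:122147437-122147686, + strand): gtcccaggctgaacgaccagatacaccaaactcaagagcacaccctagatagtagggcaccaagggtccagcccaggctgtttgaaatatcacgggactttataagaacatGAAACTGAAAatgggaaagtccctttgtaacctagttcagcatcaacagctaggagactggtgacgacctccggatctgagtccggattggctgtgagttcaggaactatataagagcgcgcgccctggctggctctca

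A match describes letters and is no evidence of binding. Clec7a held 1 GAGGAA and Samsn1 held 2, at 50 to 45 and 28 to 23 bases before the start. Bst2 held 2 overlapping matches to the response element and B2m held 1, while the windows of a, Cst7, Itgax and Ifnar2 held neither motif. GAGGAA was present in 31 of the 102 windows found for genes that rose outside the segment (30.4%), 5 of the 24 found for genes that rose inside it (20.8%) and 6252 of all 27025 windows of the table (23.1%). The response element was present in 11 of the same 102 windows (10.8%), in 0 of the 24 and in 821 of the 27025 (3.04%). Among the tested interferon-stimulated genes on the list described below, 15 of the 38 with a window held it (39.5%).

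The genes that mark the alleles were examined first. Thy1, whose regulatory sequence drives the transgenes (GRCm38 chromosome 9, 44043384 to 44048579), had 2456, 3083, 1862 and 2072 CPM in 5xFAD-Dp16, against 916, 761, 807 and 774 CPM in wild-type. The groups did not overlap, and the log2 change was 1.51 (SE 0.17, adjusted p = 1.22e-04). Reads of transgene transcripts that carry Thy1 sequence would be counted as Thy1, so this level says nothing certain of the mouse gene. App (84949685 to 85173766 on chromosome 16, in the triplicated segment) had 3136, 3223, 2637 and 2849 CPM in 5xFAD-Dp16, against 2258, 2006, 2151 and 1715 CPM in wild-type. Again every 5xFAD-Dp16 library was above every wild-type library, and the rise was 1.42-fold (log2 change 0.51, SE 0.11, adjusted p = 0.0425). This call was close to the threshold: App passed in 2 of the 16 leave-one-out fits, those without library 3 of 5xFAD-Dp16 and without library 4 of 5xFAD, and the adjusted p was up to 0.141 in the others. It did not pass with the RLE scaling of libraries in place of TMM, in males only, in the fit of the 2 groups alone, or with no filter on low counts. Of 15 tested genes of the App family and its processing, App was the only one to pass, and the median log2 change was 0.014. Per length of gene (RPKM, reads per kilobase and 1 M reads), Thy1 and App were at 1251 ± 218 and 362 ± 18.3 RPKM in 5xFAD-Dp16, against 433 ± 25.03 and 248 ± 14.1 RPKM in wild-type (SD, n = 4).

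Outside the segment 12 rises are named, the largest by log2 change among genes, predicted ones left out, that passed with no overlap between the groups and a mean of at least 1 CPM in 5xFAD-Dp16. That the groups do not overlap in these genes is therefore no result. Cst7, the cysteine protease inhibitor cystatin F, had 31.8, 29.6, 26.6 and 19.99 CPM in 5xFAD-Dp16, against 0.146, 0.218, 0.267 and 0 CPM in wild-type. Wild-type libraries were at or near the detection limit, and every 5xFAD-Dp16 library was far above it (log2 change 7.61, SE 0.47, adjusted p = 7.49e-07). Clec7a, which encodes dectin-1 and binds fungal beta-glucan, had 14.7, 13.8, 18.8 and 12.4 CPM in 5xFAD-Dp16, against 0.195, 0.524, 0.668 and 0.181 CPM in wild-type (log2 change 5.29, SE 0.39, adjusted p = 3.89e-06). Itgax, the integrin subunit CD11c, had 7.92, 9.22, 5.98 and 4.05 CPM in 5xFAD-Dp16, against 0.0974, 0.306, 0.134 and 0.453 CPM in wild-type (log2 change 5.37, SE 0.47, adjusted p = 9.76e-06). In both, the lowest 5xFAD-Dp16 library was several times above the highest wild-type library. The chemokine gene Ccl3 had 5.55, 4.82, 3.04 and 2.79 CPM in 5xFAD-Dp16, against 0, 0.393, 0.178 and 0.0453 CPM in wild-type (log2 change 5.005, SE 0.63, adjusted p = 3.74e-04), and the chemokine gene Ccl6 had 12.8, 12.8, 13.1 and 10.6 CPM in 5xFAD-Dp16, against 1.31, 1.13, 1.78 and 2.35 CPM in wild-type (log2 change 3.03, SE 0.25, adjusted p = 7.51e-06).

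The next 4 named genes encode receptors. Cd22, a sialic acid-binding lectin, had 2.89, 1.88, 1.98 and 2.68 CPM in 5xFAD-Dp16, against 0.535, 0.0873, 0.0445 and 0.0453 CPM in wild-type, with library 1 of wild-type above the other wild-type libraries (log2 change 3.74, SE 0.67, adjusted p = 0.00928). Ly9, a receptor of the SLAM family, had 3.51, 2.48, 1.82 and 3.31 CPM in 5xFAD-Dp16, against 0.292, 0.0436, 0.445 and 0.317 CPM in wild-type (log2 change 3.40, SE 0.55, adjusted p = 0.00422). Gpr65, a receptor that senses acid, had 1.08, 0.768, 1.06 and 1.21 CPM in 5xFAD-Dp16, against 0, 0.0873, 0.0891 and 0.226 CPM in wild-type (log2 change 3.39, SE 0.61, adjusted p = 0.00928). All 3 were below 1 CPM in every wild-type library. Treml2, a receptor related to Trem2, had 1.24, 1.71, 1.22 and 1.63 CPM in 5xFAD-Dp16, against 0.195, 0.131, 0.356 and 0.453 CPM in wild-type (log2 change 2.56, SE 0.58, adjusted p = 0.0493). Cxcl10, a chemokine induced by interferon, had 2.21, 3.41, 0.709 and 4.79 CPM in 5xFAD-Dp16, against 0.243, 0.175, 0.490 and 0.362 CPM in wild-type (log2 change 3.05, SE 0.69, adjusted p = 0.0463). Library 3 of 5xFAD-Dp16 was well below the other 3 for Cxcl10.

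Cst7, Itgax, Clec7a, Ccl3, Ly9 and Ccl6 passed in every leave-one-out fit. Cd22 and Gpr65 did not pass without library 3 of wild-type (adjusted p = 0.0530 and 0.0617). Cxcl10 passed in 3 of the 16 leave-one-out fits and Treml2 in 2, with adjusted p up to 0.233 and 0.245. In the males-only fit Cd22, Ly9, Gpr65, Cxcl10, Treml2 and Hcar2 did not pass, and in the fit of the 2 groups alone Ccl3, Cd22, Ly9, Gpr65, Cxcl10 and Treml2 did not pass.

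**Figure D2:**
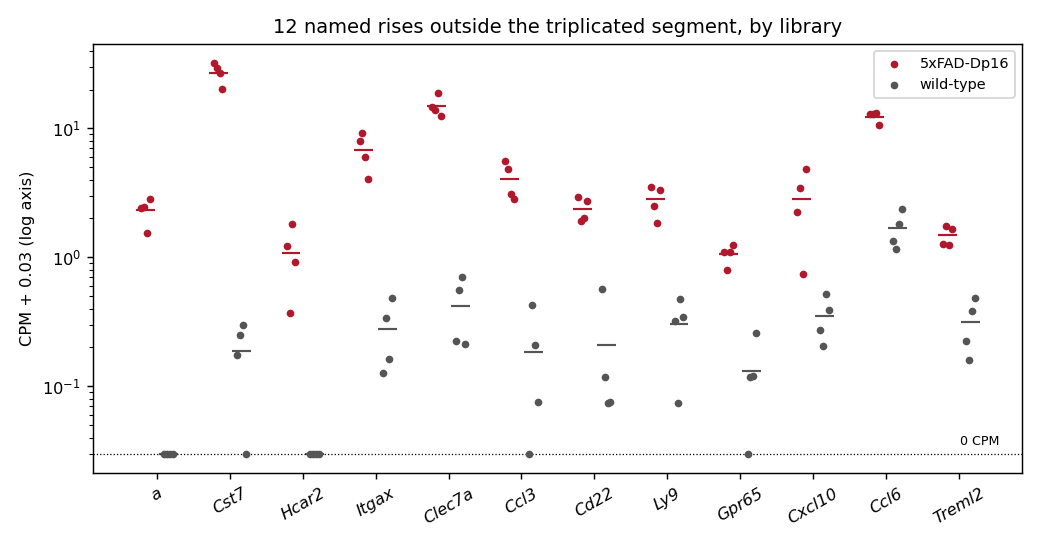
Level of the 12 named genes that rose outside the triplicated segment, in each 5xFAD-Dp16 library (red) and each wild-type library (grey), as CPM plus 0.03 on a log axis; horizontal bars are the group means and the dotted line is 0 CPM. The genes were picked for groups that do not overlap, and a and Hcar2 were at 0 in all 4 wild-type libraries.

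Both a and Hcar2 had no counts in any wild-type library. Hcar2, the receptor for niacin and beta-hydroxybutyrate, had 1.19, 0.341, 1.77 and 0.894 CPM in 5xFAD-Dp16. Against the limit that 3 counts over the 4 wild-type libraries set, its mean was at least 30.8-fold higher (adjusted p = 0.00849). The gene a, which encodes the agouti signalling protein of coat colour, had 2.38, 2.43, 1.52 and 2.79 CPM in 5xFAD-Dp16, at least 66.8-fold above the same limit (adjusted p = 3.07e-04). It was at 2.02, 2.54, 1.92 and 1.83 CPM in Dp16 and at 0, 0, 0 and 0.148 CPM in 5xFAD, so it was detected in both genotypes with the Dp16 chromosome and at most at a trace without it. It lies on chromosome 2, outside the segment, and since the labels give no strain for these mice, the duplication and a difference in strain cannot be told apart.

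Of 29 listed genes of the plaque-associated microglial state 28 were tested, 14 rose and none fell, 26 had a positive change, and the median log2 change was 1.13, against -0.0043 over all genes. Tyrobp, the signalling adaptor of Trem2, had 36.2, 34.1, 44.2 and 34.2 CPM in 5xFAD-Dp16, against 9.98, 11.1, 9.84 and 13.4 CPM in wild-type (log2 change 1.86, SE 0.14, adjusted p = 5.29e-06). Trem2 had 39.7, 41.8, 39.1 and 29.98 CPM in 5xFAD-Dp16, against 9.59, 9.38, 9.89 and 12.6 CPM in wild-type (log2 change 1.95, SE 0.17, adjusted p = 8.33e-06). Both were between 3 and 4 times higher, with no overlap. The list's score, a mean of centred log2 CPM, was 0.70, 0.57, 0.63 and 0.50 in 5xFAD-Dp16, against -0.997, -0.63, -0.78 and -0.55 in wild-type. Besides Cst7, Clec7a, Itgax, Ccl6, Tyrobp and Trem2, the genes Cd52, Lyz2, Cd68, Capg, Cd9, Gpnmb, Baiap2l2 and Ch25h passed. Of the 14, 10 passed in every leave-one-out fit, and 11 passed in males only.

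Of 17 tested homeostatic microglial genes, which mark microglia in the healthy brain, 3 rose, none fell and 16 had a positive change, with a median log2 change of 0.60. Siglech, a sialic acid-binding lectin of microglia, had 22.2, 19.9, 19.2 and 20.2 CPM in 5xFAD-Dp16, against 8.96, 12.003, 10.3 and 11.4 CPM in wild-type (log2 change 0.98, SE 0.14, adjusted p = 0.00116). The groups did not overlap in this gene. Olfml3, a secreted protein of microglia, rose by 0.91 on the log2 scale (adjusted p = 0.0149), and the call was lost without library 1 of 5xFAD-Dp16 or library 1 of wild-type (adjusted p up to 0.0790). Gpr34, a lysophosphatidylserine receptor, had a log2 change of 0.79 and did not pass (adjusted p = 0.0636). In whole tissue, more microglia and more RNA per microglial cell cannot be told apart.

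A further list held receptors and signalling proteins of immune cells. Of 34 tested members, 18 rose, none fell and all 34 had a positive change, with a median log2 change of 0.96. Fcer1g, the common gamma chain of Fc receptors, had 20.7, 20.9, 19.7 and 19.7 CPM in 5xFAD-Dp16, against 6.96, 7.64, 7.75 and 9.06 CPM in wild-type (log2 change 1.46, SE 0.14, adjusted p = 1.79e-05). Itgb2, the integrin subunit CD18, had 21.7, 20.4, 19.9 and 16.7 CPM in 5xFAD-Dp16, against 6.13, 8.07, 6.28 and 7.43 CPM in wild-type (log2 change 1.70, SE 0.16, adjusted p = 1.92e-05). The low-affinity Fc receptor gene Fcgr3 had 26.6, 27.3, 26.0 and 27.3 CPM in 5xFAD-Dp16, against 13.6, 13.8, 12.4 and 16.5 CPM in wild-type (log2 change 1.05, SE 0.11, adjusted p = 3.67e-05). Values of Fcer1g and of Fcgr3 differed little among the 4 5xFAD-Dp16 libraries, which all lay above wild-type. The SLAM family receptor gene Cd84 rose by 2.002 on the log2 scale (SE 0.20, adjusted p = 3.89e-05). Of the 18, 11 passed in every leave-one-out fit; 7 passed in males only and 6 in the fit of the 2 groups alone.

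Toll-like receptors and their cofactors, which sense microbial and self ligands, gave 7 rises among 13 tested genes, none fell, and the median log2 change was 1.27. Ly86, the partner of Cd180, had 27.0, 31.8, 28.1 and 27.6 CPM in 5xFAD-Dp16, against 9.98, 9.60, 11.1 and 11.8 CPM in wild-type (log2 change 1.49, SE 0.13, adjusted p = 9.47e-06). Cd180 had 12.6, 13.02, 8.003 and 9.05 CPM in 5xFAD-Dp16, against 2.29, 2.62, 2.14 and 2.45 CPM in wild-type (log2 change 2.43, SE 0.30, adjusted p = 3.01e-04). Tlr2, a receptor for lipoproteins, had 5.32, 5.12, 4.91 and 5.36 CPM in 5xFAD-Dp16, against 0.828, 1.53, 1.07 and 2.67 CPM in wild-type, with library 4 of wild-type above the other 3 of its group (log2 change 2.18, SE 0.27, adjusted p = 3.07e-04). The co-receptor gene Cd14 rose by 1.44 on the log2 scale (adjusted p = 1.70e-04). Unc93b1, Tlr13 and Tlr7 also passed. Chemokines and their receptors gave 4 rises among 15 tested genes (Ccl6, Ccl3, Cxcl16 and Cxcl10), none fell, and the median log2 change was 0.80; Ccl6 and Ccl3 passed in every leave-one-out fit and were the only 2 of the list to pass without any 1 of 8 libraries (5xFAD-Dp16 4, 5xFAD 1, 2 and 4, Dp16 2, wild-type 1, 3 and 4). Cxcl16 rose by 1.26 (adjusted p = 0.0461) and passed in 5 of the 16.

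Among 12 tested myeloid transcription factors 4 rose and none fell, with a median log2 change of 0.63. Irf8, which microglia need for their identity, had 13.1, 14.2, 15.04 and 16.3 CPM in 5xFAD-Dp16, against 8.28, 5.80, 5.57 and 6.29 CPM in wild-type (log2 change 1.26, SE 0.20, adjusted p = 0.00334). Spi1, which encodes PU.1, had 8.26, 8.15, 6.58 and 7.68 CPM in 5xFAD-Dp16, against 3.85, 4.19, 4.50 and 5.66 CPM in wild-type (log2 change 0.88, SE 0.18, adjusted p = 0.0218). The groups did not overlap in either gene. Ikzf1, a lymphoid and myeloid zinc finger factor, rose by 0.75 (adjusted p = 0.0493), and the fourth was the triplicated Runx1. Irf8 passed in all 16 leave-one-out fits, Runx1 in 15, Spi1 in 10 and Ikzf1 in 1; the list's count was 1 without library 1 of wild-type, 2 without any 1 of 5xFAD-Dp16 1, 2 and 4 or wild-type 2 and 3, and 0 in males only.

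Complement genes gave 6 rises among 16 tested, none fell, and the median log2 change was 0.47, or 0.21 without library 1 of wild-type. The 3 chains of C1q, which starts the classical pathway, changed by similar amounts. C1qa had 141, 162, 155 and 128 CPM in 5xFAD-Dp16, against 63.2, 63.5, 60.3 and 80.4 CPM in wild-type. C1qb had 109.8, 114, 107 and 103 CPM in 5xFAD-Dp16, against 43.1, 45.6, 40.3 and 58.9 CPM in wild-type. C1qc had 101, 112, 96.5 and 85.3 CPM in 5xFAD-Dp16, against 45.1, 41.3, 41.7 and 50.3 CPM in wild-type. Library 4 of wild-type was the highest of its group for each chain, and still below every 5xFAD-Dp16 library. The log2 changes were 1.25, 1.33 and 1.24, with adjusted p of 2.07e-05, 5.41e-06 and 4.35e-05. Per length they were at 140.5 ± 12.9, 99.5 ± 2.46 and 81.9 ± 6.36 RPKM in 5xFAD-Dp16, against 64.8 ± 13.1, 43.6 ± 10.6 and 37.2 ± 5.51 RPKM in wild-type (SD, n = 4). C3ar1, the receptor of the C3a fragment, had 6.17, 7.55, 7.70 and 6.84 CPM in 5xFAD-Dp16, against 2.24, 1.05, 1.78 and 2.81 CPM in wild-type (log2 change 1.93, SE 0.31, adjusted p = 0.00391). C4b and C3 also passed; C4b has a near-identical copy, and its count is uncertain.

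Lysosomal genes gave 12 rises among 36 tested, none fell, 32 had a positive change, and the median log2 change was 0.32. Ctss, a cysteine protease of myeloid lysosomes, had 223, 242, 223 and 212 CPM in 5xFAD-Dp16, against 79.5, 78.5, 84.7 and 95.3 CPM in wild-type (log2 change 1.498, SE 0.12, adjusted p = 5.29e-06). Ctsd, an aspartic protease of lysosomes in most cells, had 671, 556, 580.3 and 543 CPM in 5xFAD-Dp16, against 235, 308, 278 and 287 CPM in wild-type (log2 change 1.23, SE 0.12, adjusted p = 2.07e-05). The carboxypeptidase gene Ctsz had 117, 106, 90.6 and 89.6 CPM in 5xFAD-Dp16, against 41.2, 48.1, 42.3 and 46.6 CPM in wild-type (log2 change 1.33, SE 0.14, adjusted p = 4.49e-05). In all 3 the lowest 5xFAD-Dp16 library was well above the highest wild-type library. Cd68, Hexa, Ctse, Ctsa, Ctsl, Gusb, Npc2 and Ctsh were among the others that passed. Of the 12, 9 passed in every leave-one-out fit, and 9 passed in males only.

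Antigen presentation on MHC class I gave 5 rises among 16 tested genes, none fell, and all 16 had a positive change, with a median log2 change of 0.68. B2m, the light chain of class I molecules, had 212, 241, 209 and 213 CPM in 5xFAD-Dp16, against 93.3, 111, 108 and 119.6 CPM in wild-type (log2 change 1.14, SE 0.11, adjusted p = 2.07e-05). H2-D1 had 97.7, 120.2, 80.5 and 87.5 CPM in 5xFAD-Dp16, against 39.0, 46.4, 41.7 and 53.5 CPM in wild-type (log2 change 1.25, SE 0.14, adjusted p = 7.41e-05), and H2-K1 had 55.5, 56.2, 50.04 and 48.2 CPM in 5xFAD-Dp16, against 25.6, 35.5, 34.2 and 33.9 CPM in wild-type (log2 change 0.82, SE 0.12, adjusted p = 0.00252). These heavy chain genes are alike in sequence, so reads may be split between copies. Psmb8, a subunit of the immunoproteasome, rose by 1.18 (adjusted p = 0.0342), and its call was lost in 9 of the 16 leave-one-out fits (adjusted p up to 0.218). H2-T23 passed too. The list's count was 3 without any 1 of 5xFAD-Dp16 1 and 4, 5xFAD 3, Dp16 1 and wild-type 1, 2 and 3. Of 6 tested MHC class II genes, none passed and all 6 had a positive change, with a median of 0.60; H2-DMb1 had the smallest p (log2 change 1.25, adjusted p = 0.125). The median of class II moved widely between fits, with 0.18 without a sex term, 0.27 without library 1 of wild-type and 1.23 without library 3 of wild-type, and DESeq2 called 1 gene of this list.

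Interferon-stimulated genes gave 11 rises among 51 tested, none fell, and 50 had a positive change, with a median log2 change of 0.84. Lgals3bp, a secreted glycoprotein, had 82.3, 79.5, 51.3 and 82.4 CPM in 5xFAD-Dp16, against 18.6, 33.2, 33.8 and 27.0 CPM in wild-type (log2 change 1.57, SE 0.24, adjusted p = 0.00317). Irf7, a transcription factor of the interferon response, had 6.62, 4.48, 5.42 and 10.4 CPM in 5xFAD-Dp16, against 1.66, 2.88, 1.34 and 3.62 CPM in wild-type (log2 change 1.85, SE 0.33, adjusted p = 0.00884). Oasl2, of the oligoadenylate synthetase family, had 12.4, 14.9, 6.13 and 17.8 CPM in 5xFAD-Dp16, against 3.65, 5.15, 4.63 and 6.02 CPM in wild-type (log2 change 1.64, SE 0.31, adjusted p = 0.0126). Library 3 of 5xFAD-Dp16 was the lowest of its group for Lgals3bp and Oasl2, and library 4 was the highest for Irf7 and Oasl2. Bst2, the antiviral protein tetherin, had 11.5, 7.85, 9.73 and 12.3 CPM in 5xFAD-Dp16, against 3.02, 4.80, 5.66 and 3.62 CPM in wild-type (log2 change 1.39, SE 0.26, adjusted p = 0.0152). The groups did not overlap in any of these 4 genes. The list's count was 1 without library 1 of wild-type and 3 to 7 without any 1 of 5xFAD-Dp16 1, 2 and 4, wild-type 2 and 3, and Dp16 2, 3 and 4. It was 2 in males only and 0 in the fit of the 2 groups alone.

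Of 27 tested reactive astrocyte genes 4 rose (Gfap, Aspg, Psmb8 and Cxcl10) and none fell, and the median log2 change was 0.21. Psmb8 and Cxcl10 also stand on the MHC class I and chemokine lists above. The median was 0.397 without library 3 of wild-type and 0.050 without a sex term. Gfap, the intermediate filament of astrocytes, had 1037, 1274, 973 and 911 CPM in 5xFAD-Dp16, against 387, 463, 422 and 459 CPM in wild-type (log2 change 1.39, SE 0.15, adjusted p = 1.09e-04). Every 5xFAD-Dp16 library was far above every wild-type library. Aspg, an asparaginase, had 3.28, 4.82, 3.90 and 4.58 CPM in 5xFAD-Dp16, against 1.17, 1.44, 2.32 and 1.40 CPM in wild-type (log2 change 1.32, SE 0.27, adjusted p = 0.0281). Aspg was lost without 5xFAD-Dp16 2 or 4 or wild-type 1 or 2 (adjusted p up to 0.174), and without any 1 of these 4 libraries Gfap alone passed on the list. The list's count was 2 without 5xFAD-Dp16 1 or Dp16 3. Of 18 homeostatic astrocyte genes none passed, 7 had a positive change, and the median was -0.013, which moved between -0.061 and 0.025 over the fits. The smallest p belonged to the proteoglycan gene Gpc5, with 41.4, 44.3, 46.9 and 38.6 CPM in 5xFAD-Dp16, against 60.1, 47.8, 52.0 and 61.7 CPM in wild-type (log2 change -0.37, adjusted p = 0.171).

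The boundaries of the triplicated segment were set at the genes Lipi and Zbtb21 of chromosome 16 (GRCm38, 75540514 to 97962622), which holds 147 protein-coding genes, of which 90 were tested. All 90 had a positive change, against 48.9% of all genes tested. Of the 90, 26 rose and none fell. The median change was 1.49-fold (log2 0.57), and the quartiles were 1.37- and 1.63-fold. In 45 of the 90 the 4 5xFAD-Dp16 libraries lay above the 4 wild-type libraries, as they did in 514 of all 16684 genes tested (3.08%). Set against the mean of the wild-type group, the median level of these genes was 1.47, 1.38, 1.53 and 1.52 in 5xFAD-Dp16 libraries 1 to 4 and 0.932, 1.01, 1.02 and 1.07 in wild-type libraries 1 to 4. The 5 neighbouring tested genes before the segment, Vgll3, Cadm2, Gbe1, Robo1 and Robo2, had log2 changes of -0.33 to 0.16. The 2 after it had changes of -0.44 (SE 0.44) and 0.00070 (SE 0.41), too uncertain to place the end of the change on that side. The 419 tested genes of chromosome 16 outside the segment had a median of -0.0057, with 2 that passed (0.477%).

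**Figure D3:**
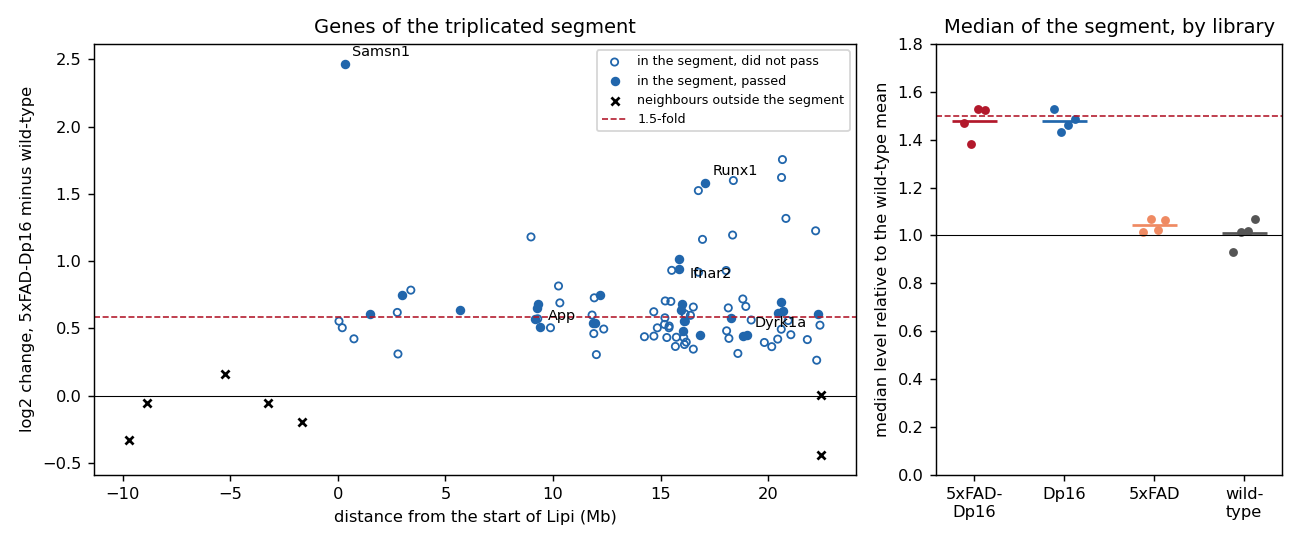
Left, log2 change of each tested gene of the triplicated segment and of its neighbours between 5xFAD-Dp16 and wild-type, by distance from the start of Lipi. Right, median over the segment's genes of the level in each library divided by that of the wild-type group. Genes of the segment lie around the dashed line of 1.5-fold, neighbours lie between -0.44 and 0.16, and the segment's median is 1.38 to 1.53 in 5xFAD-Dp16 against 0.932 to 1.07 in wild-type.

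Among the triplicated genes the cytokine receptors had some of the smallest p. Ifnar2, a chain of the type I interferon receptor, had 34.3, 32.3, 29.3 and 35.3 CPM in 5xFAD-Dp16, against 15.7, 21.3, 18.8 and 16.5 CPM in wild-type (log2 change 0.94, SE 0.12, adjusted p = 3.97e-04). Ifnar1, the other chain, had 56.8, 54.2, 51.2 and 55.1 CPM in 5xFAD-Dp16, against 35.5, 34.7, 36.6 and 33.5 CPM in wild-type (log2 change 0.64, SE 0.083, adjusted p = 4.69e-04). Ifngr2, a chain of the interferon-gamma receptor, had 115, 114, 114 and 113 CPM in 5xFAD-Dp16, against 70.7, 71.4, 76.7 and 56.1 CPM in wild-type (log2 change 0.68, SE 0.11, adjusted p = 0.00317). Values in the 4 5xFAD-Dp16 libraries lay close together and all above wild-type. Il10rb, a chain of the receptors of interleukin-10 and interferon-lambda, had 13.6, 13.2, 16.4 and 14.4 CPM in 5xFAD-Dp16, against 5.60, 8.34, 8.64 and 8.51 CPM in wild-type, with library 1 of wild-type below the other 3 (log2 change 1.01, SE 0.18, adjusted p = 0.00920). The 7 tested interferon and interleukin-10 receptor genes outside the segment did not pass, and the list as a whole had 4 rises among 11.

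Other triplicated genes with small p have roles in purine synthesis, chromatin, transcription and calcineurin signalling. Gart, an enzyme of purine synthesis, had 53.3, 52.6, 48.2 and 51.9 CPM in 5xFAD-Dp16, against 36.3, 31.3, 35.4 and 35.0 CPM in wild-type (log2 change 0.55, SE 0.082, adjusted p = 0.00214). Brwd1, a bromodomain protein, had 88.9, 105, 83.8 and 89.6 CPM in 5xFAD-Dp16, against 59.0, 57.5, 63.6 and 55.2 CPM in wild-type (log2 change 0.62, SE 0.10, adjusted p = 0.00324). Bach1, a repressor that responds to haem, had 21.0, 20.5, 22.7 and 20.9 CPM in 5xFAD-Dp16, against 13.2, 11.9, 12.03 and 14.9 CPM in wild-type (log2 change 0.75, SE 0.12, adjusted p = 0.00376). In all 3 the groups did not overlap. Gabpa, an ETS factor, and D16Ertd472e rose by 0.68 and 0.74 on the log2 scale (adjusted p = 0.00684 and 0.0126). Rcan1, an inhibitor of calcineurin, had 71.2, 75.02, 65.7 and 65.3 CPM in 5xFAD-Dp16, against 50.2, 49.0, 50.5 and 51.8 CPM in wild-type (log2 change 0.45, SE 0.078, adjusted p = 0.00781). Dyrk1a, a kinase that opposes calcineurin's targets, had 147, 149, 123 and 135 CPM in 5xFAD-Dp16, against 101, 94.3, 105 and 91.9 CPM in wild-type (log2 change 0.45, SE 0.090, adjusted p = 0.0195). Ttc3, a ubiquitin ligase, had 1394, 1361, 1365 and 1349.8 CPM in 5xFAD-Dp16, against 1008, 933, 989.7 and 1104 CPM in wild-type (log2 change 0.44, SE 0.091, adjusted p = 0.0267). Dyrk1a and Ttc3 lost their calls in 6 and 7 of the 16 leave-one-out fits (adjusted p up to 0.106 and 0.140). Of 10 tested genes of the Dyrk1a and calcineurin pathway, Rcan1 and Dyrk1a rose, none fell, and the median log2 change was 0.059. Without library 1 of wild-type neither passed.

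Among the 26 triplicated genes that passed, Samsn1 and Runx1 had the largest changes. Samsn1, an adaptor protein of blood cells, had 5.71, 5.97, 6.23 and 6.995 CPM in 5xFAD-Dp16, against 1.07, 1.40, 1.02 and 1.18 CPM in wild-type, a 5.53-fold rise (log2 change 2.47, SE 0.21, adjusted p = 8.33e-06). Runx1, a transcription factor of blood and microglial development, had 3.79, 4.44, 2.33 and 3.68 CPM in 5xFAD-Dp16, against 0.974, 0.786, 1.43 and 1.13 CPM in wild-type, a 3.00-fold rise (log2 change 1.58, SE 0.28, adjusted p = 0.00884). Against wild-type, Samsn1 differed by a log2 change of 2.12 in 5xFAD (adjusted p = 8.51e-06) and 0.35 in Dp16 (adjusted p = 0.990), and Runx1 by 1.65 in 5xFAD (adjusted p = 0.00274) and 0.51 in Dp16 (adjusted p = 0.990). These comparisons share the wild-type libraries. Both genes passed in 5xFAD alone, in which the segment is not duplicated.

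Prdm15, Btg3, Hlcs and Slc5a3 had the smallest changes among triplicated genes with a mean of at least 10 CPM, and none passed. Prdm15, a zinc finger factor, had 15.8, 17.5, 14.6 and 15.4 CPM in 5xFAD-Dp16, against 10.03, 13.9, 16.7 and 11.4 CPM in wild-type (log2 change 0.26, adjusted p = 0.9998). Btg3, an antiproliferative factor, had 13.9, 11.9, 13.1 and 13.4 CPM in 5xFAD-Dp16, against 9.25, 9.82, 10.6 and 10.9 CPM in wild-type (log2 change 0.31). Hlcs, which attaches biotin to carboxylases, and Slc5a3, a carrier of inositol, had log2 changes of 0.31 and 0.35. The groups did not overlap in Btg3 and overlapped in Prdm15, Hlcs and Slc5a3. Olig1 and Olig2, transcription factors of the oligodendrocyte lineage that lie in the segment, had log2 changes of 0.43 and 0.37 and did not pass (adjusted p = 0.129 and 0.768).

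The number of calls in the segment depended on single libraries. The count of 26 was 7 without wild-type 1, 13 without wild-type 3, 14 without 5xFAD-Dp16 4, 15 without wild-type 2, 16 without 5xFAD-Dp16 2 and 17 without 5xFAD-Dp16 1. It was 9 in males only and 1 in the fit of the 2 groups alone, while the median log2 change stayed between 0.55 and 0.66 in all fits. Samsn1, Ifnar2, Ifnar1, Gart, Ifngr2, Brwd1 and Bach1 passed in every leave-one-out fit. Gabpa, Rcan1, Runx1, Il10rb and D16Ertd472e did not pass without library 1 of wild-type (adjusted p of 0.0527 to 0.104).

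Only 5 genes fell. Cbs, the enzyme that turns homocysteine into cystathionine and whose human orthologue lies on chromosome 21 while the mouse gene lies on chromosome 17, had 17.9, 17.3, 24.3 and 19.5 CPM in 5xFAD-Dp16, against 37.1, 28.7, 31.8 and 27.3 CPM in wild-type (log2 change -0.67, SE 0.15, adjusted p = 0.0463). Pik3r3, a regulatory subunit of phosphoinositide 3-kinase, had 23.8, 24.7, 28.2 and 29.1 CPM in 5xFAD-Dp16, against 35.5, 37.2, 38.5 and 44.7 CPM in wild-type (log2 change -0.52, SE 0.10, adjusted p = 0.0185). Kcnk2, a background potassium channel, had 39.2, 39.2, 35.9 and 37.3 CPM in 5xFAD-Dp16, against 56.4, 45.5, 48.0 and 48.7 CPM in wild-type (log2 change -0.42, SE 0.094, adjusted p = 0.0442). In each, all 4 5xFAD-Dp16 libraries were below all 4 wild-type libraries, as the choice of named falls required. The other 2, Gm49980 and Gm17322, are predicted genes that were named after their values were seen. Their log2 changes were -1.22 and -1.24 (adjusted p = 0.0325 and 0.0448). Levels of Cbs were 25.6, 25.7, 25.1 and 27.6 CPM in 5xFAD and 23.8, 15.6, 18.05 and 17.9 CPM in Dp16, and levels of Pik3r3 were 36.5, 42.6, 34.8 and 39.0 CPM in 5xFAD and 28.6, 29.6, 28.6 and 28.7 CPM in Dp16. Pik3r3 did not pass without 5xFAD-Dp16 1 or 2 or wild-type 3 (adjusted p up to 0.0871). A list of 38 tested mouse genes on chromosomes 10 and 17 whose human orthologues lie on chromosome 21, which Dp16 does not duplicate, had a median log2 change of -0.052, with Itgb2 higher and Cbs lower. Cbs passed in 4 of the 16 leave-one-out fits, Kcnk2 in 3, Gm49980 in 7 and Gm17322 in 2, with adjusted p up to 0.313, 0.296, 0.176 and 0.141.

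**Figure D4:**
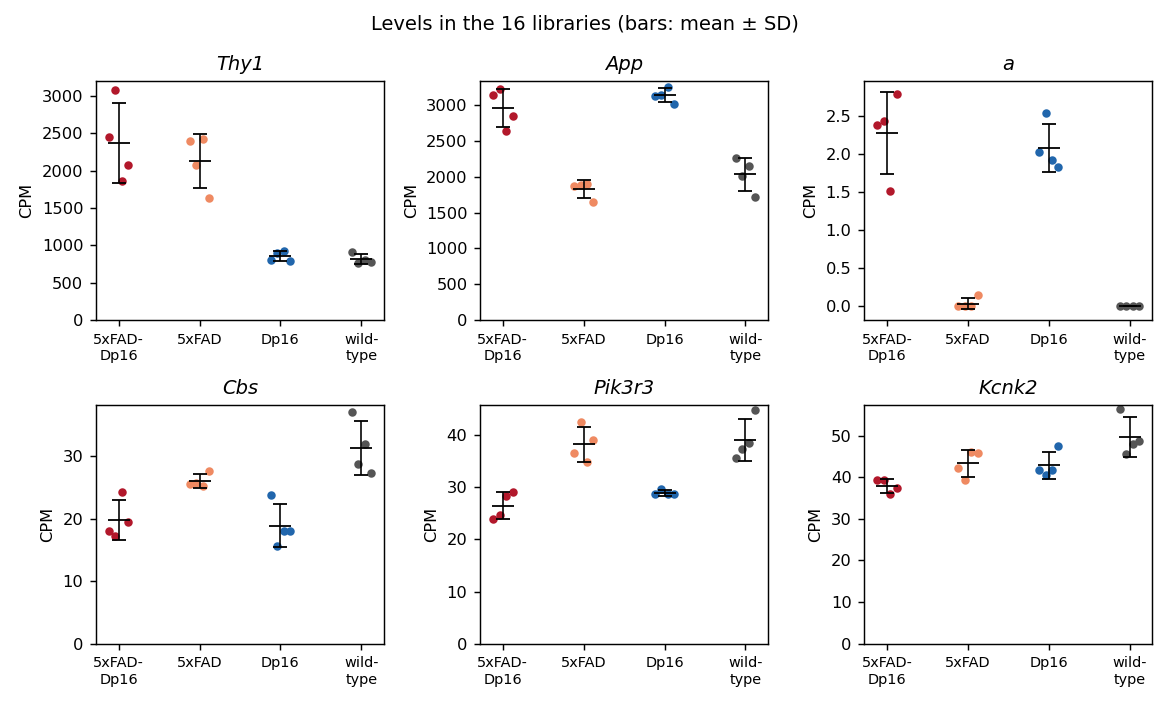
CPM of Thy1, App, a, Cbs, Pik3r3 and Kcnk2 in each of the 16 libraries, by genotype, with the group mean and SD as black bars (n = 4 per genotype). Thy1 is high in both groups with the transgenes, App and a are high in both groups with the duplication. Pik3r3 and Kcnk2 have their lowest mean in 5xFAD-Dp16, and Cbs has its lowest mean in Dp16.

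Several strong rises belonged to no list. Mpeg1, the pore-forming perforin-2 of macrophages, had 119, 119, 92.0 and 97.5 CPM in 5xFAD-Dp16, against 29.3, 30.5, 30.7 and 34.2 CPM in wild-type (log2 change 1.92, SE 0.16, adjusted p = 8.33e-06). Plek, pleckstrin of blood cells, had 32.3, 40.1, 32.4 and 30.7 CPM in 5xFAD-Dp16, against 13.9, 13.7, 13.05 and 14.1 CPM in wild-type (log2 change 1.43, SE 0.15, adjusted p = 5.05e-05). Slc11a1, a metal carrier of phagosomes, had 7.64, 6.10, 5.07 and 6.52 CPM in 5xFAD-Dp16, against 1.51, 2.44, 1.60 and 3.26 CPM in wild-type (log2 change 1.92, SE 0.21, adjusted p = 7.41e-05). In all 3 the groups did not overlap. Slc15a3, a lysosomal carrier of histidine and peptides, and Lat2, an adaptor of immune receptors, rose by 2.07 and 2.22 on the log2 scale (adjusted p = 9.62e-04 and 0.00109). Lcp1, an actin-bundling protein of leukocytes, had 22.8, 22.6, 23.6 and 21.2 CPM in 5xFAD-Dp16, against 12.2, 13.5, 11.9 and 12.7 CPM in wild-type (log2 change 0.92, SE 0.14, adjusted p = 0.00214). Naip5, a sensor of bacterial flagellin with near-identical copies beside it, and Plau, the urokinase protease, rose by 2.40 and 1.64 (adjusted p = 0.00309 and 0.00324). All 8 passed in each leave-one-out fit. In males only Lcp1, Naip5 and Plau did not pass. Outside the segment and the lists, 61 genes passed in all, 57 higher and 4 lower, with a median log2 change of 1.29.

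**Figure D5:**
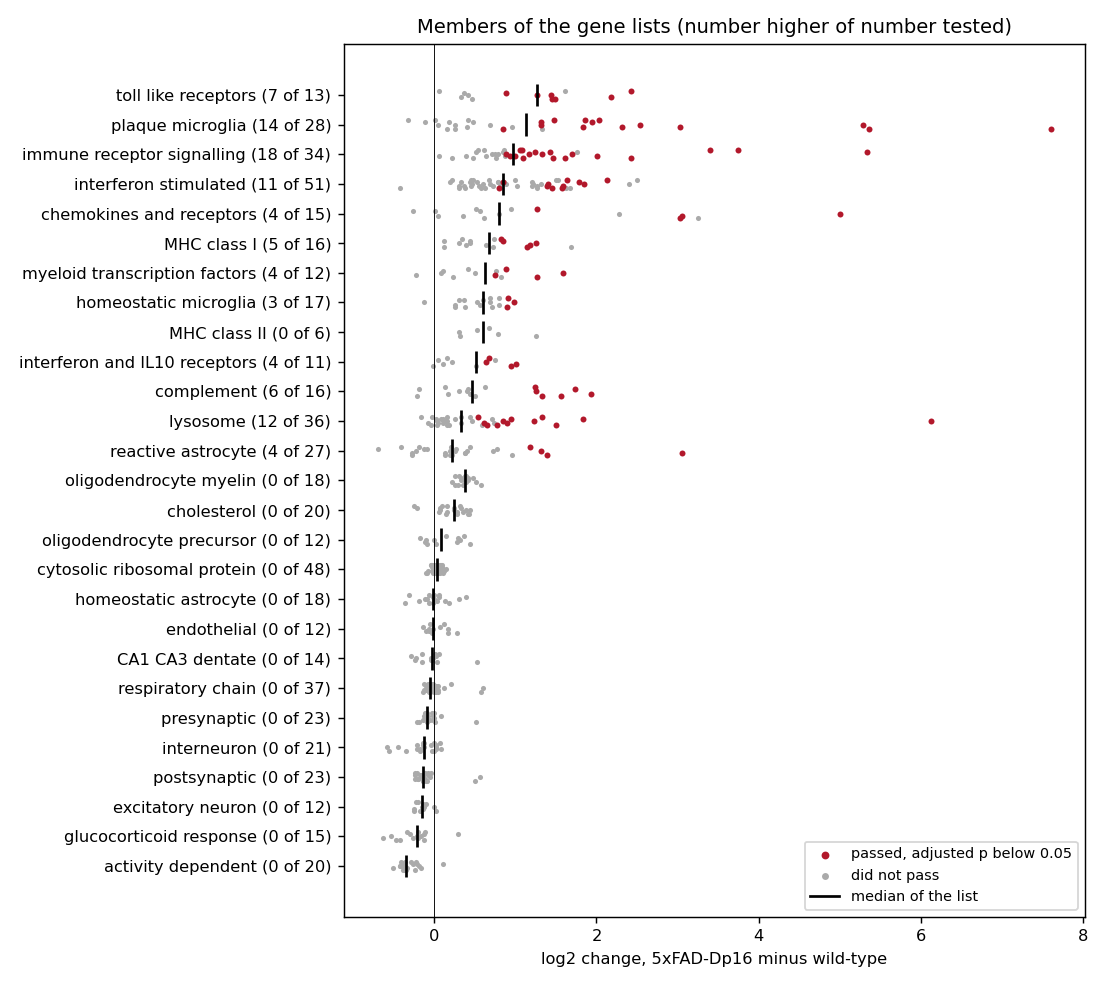
Log2 change between 5xFAD-Dp16 and wild-type of every tested member of 27 gene lists; red points passed at an adjusted p below 0.05, grey points did not, and the black bar is the list's median. Lists of microglia, immune receptors, lysosome and interferon response are shifted to the right, while neuronal and synaptic lists sit near or slightly below 0 with none.

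No neuronal gene list held a gene that passed. The median log2 change was -0.15 in 12 excitatory neuron genes, -0.13 in 21 interneuron genes, -0.096 in 23 presynaptic genes and -0.14 in 23 postsynaptic genes, and 1, 5, 3 and 2 of them had a positive change. Single libraries decided the size and in part the sign of these medians. Without library 1 of wild-type the excitatory median was -0.0089 and the presynaptic one 0.040, without library 4 of wild-type the interneuron median was 0.021, and without library 3 of 5xFAD-Dp16 the postsynaptic median was -0.0079. Other fits moved them the other way. In males only the excitatory, presynaptic and postsynaptic medians were lower, at -0.29, -0.19 and -0.31, while the interneuron median was -0.040. DESeq2 called no gene of these 4 lists either, while 1 presynaptic and 1 postsynaptic gene passed with no filter on low counts. The positive ones included the triplicated Synj1, a synaptic phosphatase, Grik1, a kainate receptor subunit, and Kcnj6, a potassium channel (log2 changes 0.52, 0.49 and 0.56, none passing). Of 20 genes induced by neuronal activity none passed and 1 had a positive change, with a median of -0.36. Without library 1 of wild-type this median was 0.059, and in males only it was -0.57. Sst, the neuropeptide somatostatin of interneurons, had 217, 191, 202 and 241 CPM in 5xFAD-Dp16, against 299, 240.3, 228 and 310.1 CPM in wild-type (log2 change -0.35, adjusted p = 0.555).

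Oligodendrocyte, metabolic and stress lists had no passing gene in edgeR's test, while DESeq2 called 1 myelin, 1 oligodendrocyte precursor, 2 cholesterol synthesis and 1 respiratory chain gene. The 12 tested oligodendrocyte precursor genes had a median log2 change of 0.079. All 18 tested myelin genes had a positive change, with a median log2 change of 0.37. Mag, a myelin glycoprotein, had 205, 202, 329.6 and 187 CPM in 5xFAD-Dp16, against 162, 199, 135 and 208 CPM in wild-type (log2 change 0.51, adjusted p = 0.463), and the iron carrier gene Trf had a log2 change of 0.58 (adjusted p = 0.168). In both, library 3 of 5xFAD-Dp16, which was high in midbrain markers, was the highest of the 8, and without it the median of the list was 0.21. Of 20 cholesterol synthesis genes 18 had a positive change, with a median of 0.25. Sqle, squalene epoxidase, had 84.5, 88.6, 76.4 and 74.7 CPM in 5xFAD-Dp16, against 57.0, 57.2, 64.1 and 63.6 CPM in wild-type, and Fdft1, squalene synthase, had 135, 149, 131 and 127 CPM in 5xFAD-Dp16, against 96.9, 91.9, 92.1 and 103 CPM in wild-type; neither overlapped between groups, and neither passed (log2 changes 0.41 and 0.44, adjusted p = 0.118 and 0.135). Of 15 glucocorticoid-responsive genes 1 had a positive change, with a median of -0.21, or -0.36 without library 1 and -0.13 without library 3 of wild-type. Klf15, a transcription factor induced by glucocorticoids, had 16.9, 15.7, 17.2 and 16.7 CPM in 5xFAD-Dp16, against 21.0, 24.01, 25.6 and 23.003 CPM in wild-type, with no overlap (log2 change -0.48, adjusted p = 0.0632). Cytosolic ribosomal protein genes (48 tested) and respiratory chain genes (37 tested) had medians of 0.028 and -0.056; the 2 respiratory chain genes with the largest changes, Atp5j and Atp5o, lie in the segment (0.57 and 0.60).

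Markers of other cell types and tissues were examined in the same way. None of the tested endothelial (12), mural (9), meningeal fibroblast (10), choroid plexus (12), thalamus (12), midbrain and hypothalamus (8), hippocampal field (14), T and NK cell (6), blood (8) and border macrophage (6) genes passed. Medians were -0.024, -0.26, -0.12, 0.42, -0.18, 1.38, -0.033, 0.33, -0.22 and -0.48 in that order, and single libraries moved many of them, with changes of sign in the endothelial, fibroblast, choroid plexus, hippocampal field and blood medians. The choroid plexus median was -0.16 without library 1 of wild-type and 1.76 without library 3, and the midbrain median was 0.14 without library 3 of 5xFAD-Dp16. The choroid plexus score was 1.98, -1.79, 0.81 and 1.87 in 5xFAD-Dp16 and -2.50, 2.38, 1.69 and -2.82 in wild-type. Of the T cell receptor complex, Cd3e had 0 to 15 counts per 5xFAD-Dp16 library, against 1 to 5 per wild-type library, too few for a test. The part of these markers in the results above was not tested, except for the midbrain list, by the fit without its 3 high libraries. In that fit Treml2, Kcnk2, Gm49980, Gm17322, D16Ertd472e, Ikzf1, Cxcl16 and Bst2 no longer passed, and Gpr34 and Grik1 did.

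The combined genotype was then set against each parent. Each parent group held 2 males and 2 females, while 5xFAD-Dp16 held males only, so the sex term was estimated from the other genotypes. In the fit of all 16 libraries, a sex difference that depends on genotype cannot be told apart from the combined genotype. The same limit holds for the interaction described below. Against 5xFAD, 9 genes passed (0.0539% of genes tested), all of them higher in 5xFAD-Dp16. These were a and 8 genes of the segment: Rcan1, Ifnar1, Ifngr2, Gart, Gabpa, Dnajc28, Dyrk1a and C2cd2, of which the last 4 were named after their values were seen. No member of the microglial, interferon-stimulated, complement or lysosomal lists passed against 5xFAD. The count was 0 in 7 of the 16 leave-one-out fits (without any 1 of 5xFAD-Dp16 1, 2 and 4, 5xFAD 3 and Dp16 1, 2 and 3) and 0 in males only, and it was 13 without the libraries high in midbrain markers. Against Dp16, 141 genes passed (0.845%), 138 higher and 3 lower. The count was 76 without library 2 of Dp16, 80 without library 3 of Dp16, 115 without the libraries high in midbrain markers and 49 in males only. Both comparisons share the 5xFAD-Dp16 libraries. The 3 that were lower than in Dp16 were Klf15, Rbm12 and Banp, of which the last 2 were named after their values were seen. Within the segment the median log2 change was 0.54 against 5xFAD and 0.053 against Dp16.

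Whether the combined genotype departed from the sum of the parents' log2 changes was tested as an interaction. No gene passed (0% of genes tested) in edgeR's test, and none in DESeq2, but 128 passed in edgeR's test with no filter on low counts. In simulated counts of 16684 genes, of which 200 were changed, the interaction test recovered 10.4% of 1.5-fold, 40.3% of 2-fold and 69.7% of 4-fold changes. The absence of passing genes therefore does not show that the parents' changes add up. An unadjusted p below 0.05 was reached by 332 genes. This is less than 0.05 of the 16684 genes tested, the share that chance gives with no interaction. The log2 changes against wild-type in 5xFAD-Dp16, 5xFAD and Dp16 were 7.61, 8.05 and 0.033 for Cst7, 1.39, 1.43 and 0.10 for Gfap, 1.57, 1.16 and 0.28 for Lgals3bp, and 0.94, 0.28 and 0.60 for Ifnar2. The median over the 51 interferon-stimulated genes was 0.84, 0.70 and 0.11, and over the 28 plaque-associated genes 1.13, 1.06 and -0.047. These values share the wild-type libraries. The gene with the smallest p in the interaction was Cfap100, of motile cilia, at 2.72, 2.26, 2.79 and 2.79 CPM in 5xFAD-Dp16, against 2.04, 1.57, 2.72 and 1.04 CPM in wild-type, with 3.13, 2.34, 3.80 and 3.99 CPM in 5xFAD and 2.14, 2.92, 4.47 and 2.81 CPM in Dp16 (log2 -1.39, unadjusted p = 4.83e-04). Tlr7, an endosomal receptor of single-stranded RNA, was at 5.04, 6.19, 3.80 and 3.997 CPM in 5xFAD-Dp16, against 2.24, 2.05, 1.78 and 1.68 CPM in wild-type, with 8.24, 5.51, 6.54 and 4.59 CPM in 5xFAD and 3.65, 4.24, 3.66 and 2.44 CPM in Dp16 (log2 -1.26, unadjusted p = 0.00215). Every library of the other 3 genotypes was above every wild-type library, but the gene was picked by its values, so this separation is no result.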

How the data were processed

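Hippocampal RNA of mice aged 5 months was sequenced as 16 paired-end, strand-specific poly(A) libraries, per the labels' protocols. Gene counts, deposited by the authors for 55385 gene IDs, are raw counts. RPKM values, deposited by the authors, are counts per kilobase of gene and per M (mega) reads. The submitters' processing notes name bcl2fastq, FastQC 0.11.5, HISAT2 2.1.0, SAMtools 1.5, HTSeq 0.6.1 and build GRCm38. For the strand setting of counting, which was not given in the sources used here, overlapping antisense genes may share reads. Coordinates come from GENCODE vM21 (55144 IDs matched).

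Counts were tested with edgeR 4.0.16 in R 4.3.3 (limma 3.58.1): filterByExpr over the 4 genotypes, TMM scaling, a robust quasi-likelihood fit of all 16 libraries with genotype and sex as terms, and Benjamini-Hochberg adjustment over all 16684 genes tested, with a threshold of 0.05. CPM were computed from each library's total over the tested genes, multiplied by its TMM factor. The RPKM served only to give levels per length. Library totals of 15.8 to 25.04 M counts over the 16 libraries set the precision of low genes, and a group at 0 counts was given a floor of 3 counts over its 4 libraries. In simulated counts of the 5xFAD-Dp16 against wild-type comparison, run on 16684 genes of which 200 were changed, the script recovered 26.9% of 1.5-fold, 67.2% of 2-fold and 77.3% of 4-fold changes.

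Alternatives were RLE size factors, DESeq2 1.42.0, no low-count filter, the 2 groups alone, no sex term, males only, a replicate block, each library left out in turn and, added after the data were seen, a fit without the 3 libraries whose midbrain and hypothalamus score was above 1. A fit of the 2 groups alone was made only against wild-type. It kept the sex term, so its comparison rested on the wild-type males. The members and gene lists were chosen with earlier results of these data known. Named genes are App and Thy1, the up to 12 largest rises and falls that passed outside the segment without overlap and at 1 CPM or more, 12 triplicated genes ranked by p and the 4 that changed least, up to 4 members per list by p, the 5 genes with the smallest p in each other contrast, the 10 unlisted genes with the smallest p, the 4 most abundant genes that passed, Xist and Ddx3y. Other genes that passed are named after their values were seen. Similar paralogs (H2, Fcgr, Ifit, C4b and ribosomal genes) may share reads. The result of 1 gene, which is counted in its lists, is not reported here.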

Additional observations from a re-analysis of the deposited data

Results flagged for a closer look

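In each group of 4 libraries the highest and the lowest value were compared with the other 3, and a value was singled out where its gap to the nearest of them was above Dixon's critical share of the group's range. Of 268 groups of values examined 15 had such a value, and chance gives about 1 in 20. No explanation was tested.

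In 5xFAD-Dp16, library 4 had 10.6 CPM of Ccl6 against 12.8 to 13.1 in the other 3. Library 2 had 241 CPM of B2m against 209 to 213. Library 3 had 51.3 CPM of Lgals3bp against 79.5 to 82.4, and 329.6 CPM of Mag against 187 to 205. The list scores of the same library 3 were 0.27 for chemokines and their receptors against 0.57 to 0.63, and 0.56 for myelin genes against -0.059 to 0.019. This library also had the highest midbrain score of its group.

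In wild-type, library 1 had 0.535 CPM of Cd22 against 0.0445 to 0.0873 in the other 3. It had 5.60 CPM of Il10rb against 8.34 to 8.64, 25.6 CPM of H2-K1 against 33.9 to 35.5, and an MHC class II score of -1.58 against 0.15 to 0.46. Library 4 had 12.6 CPM of Trem2 against 9.38 to 9.89, 80.4 CPM of C1qa against 60.3 to 63.5 and 1.95 CPM of Lat2 against 0.828 to 1.00. Its midbrain and hypothalamus score was 2.09 against -0.82 to -0.33, and its score of hippocampal field genes was -1.05 against 0.098 to 0.28.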

How the results depend on the processing

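The 169 genes that passed in 5xFAD-Dp16 against wild-type became 40 in the fit of the 2 groups alone, 61 in males only, 267 with DESeq2 and 355 with no low-count filter, and 80 to 172 when 1 library was left out. The 9 genes against 5xFAD became 25 with DESeq2, 0 in males only, 75 with no filter, 17 without a sex term and 0 with a replicate block, and 0 to 11 when 1 library was left out. The 141 genes against Dp16 became 269 with DESeq2, 49 in males only and 620 with no filter, and 76 to 146 when 1 library was left out. The interaction had 0 genes, but 128 with no filter. In the segment the 26 passing genes became 1 in the 2 groups alone, 9 in males only and 44 with no filter, and 7 to 33 when 1 library was left out. Its median log2 change of 0.57 was 0.66 in the 2 groups alone and 0.65 in males only. Interferon-stimulated genes that passed numbered 23 with DESeq2 and 23 with no filter, against 11. The cause of these changes was not tested. The leave-one-out, males-only and 2-group fits held fewer libraries. In the males-only and 2-group fits the comparison with wild-type rested on the wild-type males, the latter through its sex term.

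Of 95 genes followed through the settings none changed direction under any of these settings. In their leave-one-out fits 1348 results stayed on the same side of the threshold, 165 lost it and 7 gained it. With a replicate block 173 genes passed against wild-type, 143 of them among the 169, and 5 of the 95 genes lost their call. The labels share replicate numbers between groups, but same-numbered libraries correlated by 0.00054, -0.21, -0.32 and 0.021 in their deviations from the group mean, so the numbers were not taken as pairs. At this depth genes near 0 CPM have fold changes known only as lower bounds.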
